A study of Mus musculus with 9 samples.

Results

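The Toll-like receptors described here are the 10 mouse genes Tlr1 to Tlr9 and Tlr13, chosen by their gene symbols among the 55655 rows of the expression tables, and all 10 were found. They were measured by RNA-seq in wild-type C57BL/6 bone marrow-derived macrophages (BMDMs). The marrow came from mice of 6 to 8 weeks and was kept for 7 days with 10 ng/mL M-CSF, which gave the resting macrophages called M0 (3 libraries, labelled as not treated with PBM). M1 macrophages (3 libraries) were M0 cells given LPS, a TLR4 ligand, at 100 ng/mL together with IFN-γ at 20 ng/mL, and RNA was taken after 12 hours. M1 + PBM macrophages (3 libraries) received the same stimuli and were also exposed to photobiomodulation (PBM), near-infrared laser light at 6 mW/cm2 for 7 minutes every 12 hours. The time at which M0 RNA was taken is not given in the sources used here, and there was no M0 group with PBM among the samples. Nothing in the labels says whether replicates were separate animals or separate wells, so p-values measure only the spread between these samples.

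Toll-like receptors are membrane proteins that recognize conserved molecules of microbes through an ectodomain of leucine-rich repeats and signal through a cytoplasmic TIR domain. In mice, TLR1, TLR2, TLR4, TLR5 and TLR6 act mainly at the cell surface, where TLR2 pairs with TLR1 or TLR6 to bind lipopeptides, TLR4 with its partner MD-2 binds LPS, and TLR5 binds flagellin. TLR3, TLR7, TLR8, TLR9 and TLR13 reside in endosomes. The nucleic acids sensed there include double-stranded RNA (TLR3), single-stranded RNA (TLR7), unmethylated CpG DNA (TLR9) and bacterial ribosomal RNA (TLR13). No ligand of mouse TLR8 is given here. Macrophages use these receptors as their first sensors of infection, and MyD88 and TRIF are the adaptors that carry the signal to NF-κB and the interferon regulatory factors.

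The proximal promoters of the 4 receptors that were higher in M1 than in M0 libraries at the level of their group means by the largest amounts, and of Tlr13, which was lower, are shown because LPS and IFN-γ act through NF-κB, AP-1 and interferon regulatory factors, among others. RefSeq promoters on build GRCm38.p6 were found for 8 of the 10 genes (10 promoters, since Tlr1 and Tlr6 have 2 each). No promoter was found for Tlr4 or Tlr7 there. Each sequence is the 250 bases before the annotated start, and capitals mark matches on either strand to the GAS element (TTCNNNGAA), the ISRE core, the κB motif or the AP-1 site (TGANTCA).
Tlr1 (chr5:64932700-64932949, minus strand): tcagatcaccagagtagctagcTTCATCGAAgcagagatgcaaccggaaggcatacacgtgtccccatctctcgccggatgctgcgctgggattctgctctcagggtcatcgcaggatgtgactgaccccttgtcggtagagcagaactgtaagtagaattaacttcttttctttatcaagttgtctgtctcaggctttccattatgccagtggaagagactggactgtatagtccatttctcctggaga
Tlr2 (chr3:83841609-83841858, minus strand): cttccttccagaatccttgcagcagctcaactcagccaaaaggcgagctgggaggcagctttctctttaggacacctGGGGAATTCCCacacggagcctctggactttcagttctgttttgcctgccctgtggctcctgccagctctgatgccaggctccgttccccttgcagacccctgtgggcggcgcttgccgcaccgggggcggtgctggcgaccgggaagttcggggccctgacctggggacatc
Tlr6 (chr5:64959167-64959416, minus strand): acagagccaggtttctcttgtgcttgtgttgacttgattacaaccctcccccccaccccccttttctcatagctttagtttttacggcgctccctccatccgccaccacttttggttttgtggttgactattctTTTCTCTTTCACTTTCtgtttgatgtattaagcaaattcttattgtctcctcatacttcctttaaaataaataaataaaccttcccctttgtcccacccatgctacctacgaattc
Tlr3 (chr8:45410381-45410630, minus strand): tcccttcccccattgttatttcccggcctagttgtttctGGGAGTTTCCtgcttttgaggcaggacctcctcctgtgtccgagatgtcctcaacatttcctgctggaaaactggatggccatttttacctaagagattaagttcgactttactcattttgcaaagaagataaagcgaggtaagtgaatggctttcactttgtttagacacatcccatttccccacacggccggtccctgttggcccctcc
Tlr13 (chrX:106143025-106143274, plus strand): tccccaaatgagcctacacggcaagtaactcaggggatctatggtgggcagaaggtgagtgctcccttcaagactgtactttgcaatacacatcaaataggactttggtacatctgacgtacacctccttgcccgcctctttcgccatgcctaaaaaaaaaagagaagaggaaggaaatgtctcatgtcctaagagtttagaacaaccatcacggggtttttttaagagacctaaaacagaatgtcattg
In the Tlr1 promoter shown, the capitals are a GAS match 228 to 220 bases before the start. Those in the Tlr2 promoter are overlapping κB matches between 173 and 163 bases, those in Tlr6 are overlapping ISRE matches between 116 and 101 bases, and those in Tlr3 are a κB match between 211 and 202 bases before the start. The Tlr13 window held no match to these 4 motifs, and the same was true of Tlr5 and of the other promoters of Tlr1 and Tlr6. Of those not shown, Tlr8 held a GAS match and Tlr9 an AP-1 match. Of all 32851 promoters, 7.02% held the GAS letters, 2.98% the ISRE core, 7.25% the κB motif and 6.75% the AP-1 site, while of the 10 Toll-like receptor promoters 2, 1, 2 and 1 did. The ETS core GAGGAA, which PU.1 can bind and which is not capitalized, was in 4 of the 10 (Tlr1, Tlr8, Tlr9 and Tlr13) and in 23.3% of all promoters. Such matches describe letters only and do not show binding.

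Expression was deposited as FPKM, fragments scaled to transcript length and to the fragments of the library, which allows levels of different genes to be compared per length. M0 has a separate table, and whether it was scaled together with the table of the other 6 is not given, so M0 levels were set beside the others without a test. From the steps between low values, depth was estimated at 30880000 to 41990000 fragments per library. The macrophage markers Adgre1, Itgam, Csf1r, Cd68, Mertk, Fcgr1, Lyz2 and Spi1 were expressed in each of the 9 libraries, with summed FPKM between 5362 and 10209. All 5 conventional dendritic, 5 B cell, 5 T and NK cell and 6 erythroid markers stayed under an FPKM of 1. Of the 5 plasmacytoid dendritic markers, Siglech, the defining one, reached at most 0.014. Tcf4 was the only 1 of these to reach an FPKM of 1, with 2.06 to 3.14 over the 9 libraries. In the neutrophil list Ly6g and S100a9 were listed at 0 throughout, and the summed list was 1.41 to 2.40 in M0, 8.87 to 28.0 in M1 and 6.41 to 14.9 in M1 + PBM. S100a8 gave most of it, and Camp reached 0.38 in M0, 2.80 in M1 and 2.44 in M1 + PBM. Of the genes that define M1 activation, Nos2 had an FPKM of 0.61 ± 1.02 in M0 and 228.6 ± 100.9 in M1, and Il6 had 0.30 ± 0.47 and 20.6 ± 5.27 (SD over 3 libraries).

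A pair of libraries stood apart from their groups. In M0 replicate 3 the summed FPKM of the 8 inflammatory reference genes was 278.7, against 18.4 and 16.3 in M0 replicates 1 and 2, and that of the 5 stromal markers was 181.2, against 6.49 and 5.28. In M1 replicate 2 the 5 hepatocyte markers summed to 13.7, against at most 0.23 in the other 8 libraries. The stromal sum was 8.42 to 12.1 in M1 and 3.32 to 25.8 in M1 + PBM. The part of these libraries in the results was not tested, and values without M0 replicate 3, or without M1 replicate 2 where that moved a call, are given beside the results or with the alternatives. In bulk RNA, fewer cells of a type and less RNA per cell cannot be told apart.

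The makeup of the family differed between resting and stimulated cells. In M0 macrophages Tlr13 was the most abundant Toll-like receptor in all 3 libraries, with 48.2%, 49.7% and 39.4% of the summed FPKM of the 10 genes in replicates 1 to 3. In M1 its share was 13.2%, 12.5% and 8.85%, and in M1 + PBM it was 17.6%, 11.5% and 19.0%. Tlr1 took between 5.91% and 8.37% of the sum in M0, between 24.2% and 26.7% in M1 and between 25.2% and 27.8% in M1 + PBM. The 5 cell surface receptors together made up 23.2%, 22.3% and 37.8% of the sum in M0 and 60.9%, 67.9% and 45.7% in M1. In M1 + PBM they made up 52.8%, 58.1% and 47.7%, so the range of M1 + PBM lay inside that of M1, and both lay above M0. The sum itself was 190.5 to 253.5 in M0, 279.7 to 366.3 in M1 and 300.1 to 376.3 in M1 + PBM. These shares do not depend on how a library was scaled.

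**Figure D1:**
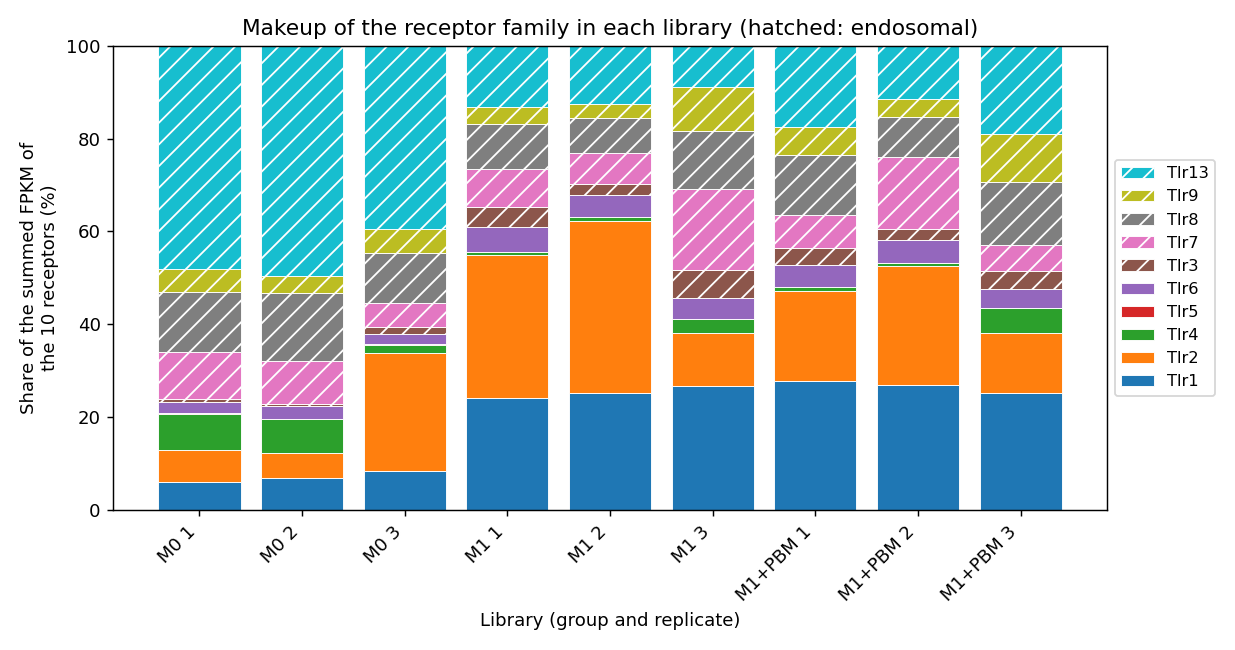
Share of each Toll-like receptor in the summed FPKM of the 10 genes (y axis, percent) in each of the 9 libraries (x axis), with endosomal receptors hatched. Tlr13 makes up 39.4% to 49.7% in M0 and 8.85% to 13.2% in M1, while Tlr1 goes from at most 8.37% to at least 24.2%.

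By mean FPKM, the order in M0 was Tlr13, Tlr8, Tlr2, Tlr7, Tlr1, Tlr4, Tlr9, Tlr6, Tlr3 and Tlr5. Only the steps from Tlr13 to Tlr8, from Tlr9 to Tlr6, from Tlr6 to Tlr3 and from Tlr3 to Tlr5 were free of overlap between libraries, and Tlr8, Tlr2, Tlr7, Tlr1, Tlr4 and Tlr9 overlapped with their neighbours. The order in M1 was Tlr2, Tlr1, Tlr13, Tlr7, Tlr8, Tlr9, Tlr6, Tlr3, Tlr4 and Tlr5, where only Tlr1 against Tlr13 and Tlr4 against Tlr5 did not overlap. In M1 + PBM it was Tlr1, Tlr2, Tlr13, Tlr8, Tlr7, Tlr9, Tlr6, Tlr3, Tlr4 and Tlr5. There the steps from Tlr13 to Tlr8, from Tlr6 to Tlr3 and from Tlr4 to Tlr5 were free of overlap. The mean of Tlr13 in M0 was above that of 98.0% of the 13915 rows that reached an FPKM of 1 in 3 or more of all 9 libraries, and the mean of Tlr1 in M1 was above 96.5% of them.

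The first question is which receptors differ between resting M0 and M1 macrophages. Tlr1, Tlr3 and Tlr6 were higher in M1, and Tlr13 was lower, each with no overlap between the groups and a difference of at least 1 in mean log2(FPKM + 1). By this rule 7.81% of the 13915 rows were higher and 13.7% were lower in M1, against 3 and 1 of the 9 Toll-like receptors that passed the FPKM minimum. All rows together had a median difference of -0.34. Median-of-ratios scaling of the 9 libraries, which draws such a median towards 0 by design, moved it to 0.042. Whether the -0.34 came from the scaling of the tables or from the cells cannot be told apart here. Without M0 replicate 3, Tlr2 joined the higher receptors and Tlr4 the lower ones, giving 4 and 2, where 8.82% and 14.6% of all rows passed. The same 4 and 2 passed without replicate 3 of both groups, against 8.64% and 13.1% of all rows. They also passed without M1 replicate 3 alone, for which the share of all rows was not computed. Between M1 + PBM and M0, the higher receptors were again Tlr1, Tlr3 and Tlr6 and 0 were lower, against 7.13% and 10.3% of all rows. Without M0 replicate 3 there were 4 higher and 2 lower, against 7.98% and 11.3%.

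Among the receptors that pair with TLR2, Tlr1 (ENSMUSG00000044827) had an FPKM of 13.1, 17.3 and 15.9 in M0 replicates 1 to 3 and of 67.6, 92.2 and 77.2 in M1. In M1 + PBM it had 88.6, 100.9 and 75.7. Every stimulated library was several times above every M0 library, and the M1 and M1 + PBM libraries overlapped. The mean of M1 was 5.12 times that of M0, with a log2 difference of 2.28, and that of M1 + PBM was 5.73 times that of M0. Over the alternatives the log2 difference of Tlr1 between M1 and M0 stayed between 2.16 and 2.76.

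Tlr6 (ENSMUSG00000051498), which stands next to Tlr1 on chromosome 5, had 5.44, 6.68 and 3.95 in M0, 14.9, 17.7 and 13.1 in M1 and 15.3, 18.7 and 12.8 in M1 + PBM. As with Tlr1, the stimulated libraries lay above all M0 libraries and did not separate from each other. The mean of M1 was 2.84 times that of M0 (log2 difference 1.37, between 1.09 and 1.80 over the alternatives). The 1.09 was reached when M0 replicate 3 and M1 replicate 2 were left out together. Tlr1 and Tlr6 are similar genes, and 13.6% of the 50-base windows of the annotated Tlr1 transcripts occur in those of Tlr6. How reads that match both were counted is not given, so a part of each value is uncertain. No other pair of the 10 receptors shared such a window.

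Tlr2 (ENSMUSG00000027995), the common partner, had 15.4, 13.6 and 48.2 in M0, 86.1, 135.6 and 33.0 in M1 and 62.0, 97.0 and 38.9 in M1 + PBM. M0 replicate 3, the library with inflammatory and stromal transcripts, was above M1 replicate 3 and M1 + PBM replicate 3, so the groups overlapped. The mean of M1 was 3.30 times that of M0 with a log2 difference of 1.70, and 5.86 times without M0 replicate 3, with a log2 difference of 2.26. The log2 difference of M1 + PBM from M0 was 1.46. With median-of-ratios scaling and all libraries kept, neither group overlapped with M0, and the log2 differences were 2.18 for M1 and 1.85 for M1 + PBM.

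Tlr4 (ENSMUSG00000039005), the LPS receptor, had 17.4, 18.9 and 3.69 in M0. Its FPKM was 1.80, 3.39 and 8.97 in M1 and 2.72, 2.03 and 15.6 in M1 + PBM. Replicate 3 departed from its group in all 3 conditions, low in M0 and high in both stimulated groups. For Tlr2 replicate 3 was the reverse, highest of M0 and lowest of both stimulated groups. In M1 + PBM, though, Tlr2 deviated from the group mean by 0.64 (log2) in replicate 2 and by -0.65 in replicate 3. The log2 difference of Tlr4 between M1 and M0 was -1.27 and the groups overlapped, while without M0 replicate 3 they did not overlap and the difference was -1.94. Without replicate 3 of both groups, which was added once the data had been seen, it was -2.45, and that of Tlr2 was 2.82.

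Tlr5 (ENSMUSG00000079164), the flagellin receptor, was hardly detected. It had an FPKM of 0.099, 0.041 and 0.27 in M0, at most about 35.1 fragments in a library by the longest annotated transcript. It was listed at 0 in 3 of the 6 stimulated libraries and did not exceed 0.011 in the others, or about 1.58 fragments. Tlr5 did not reach the FPKM minimum and was not tested. Tlr11 and Tlr12, which sense a profilin of protozoa and are not among the 10, had at most 0.12 in any library.

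**Figure D2:**
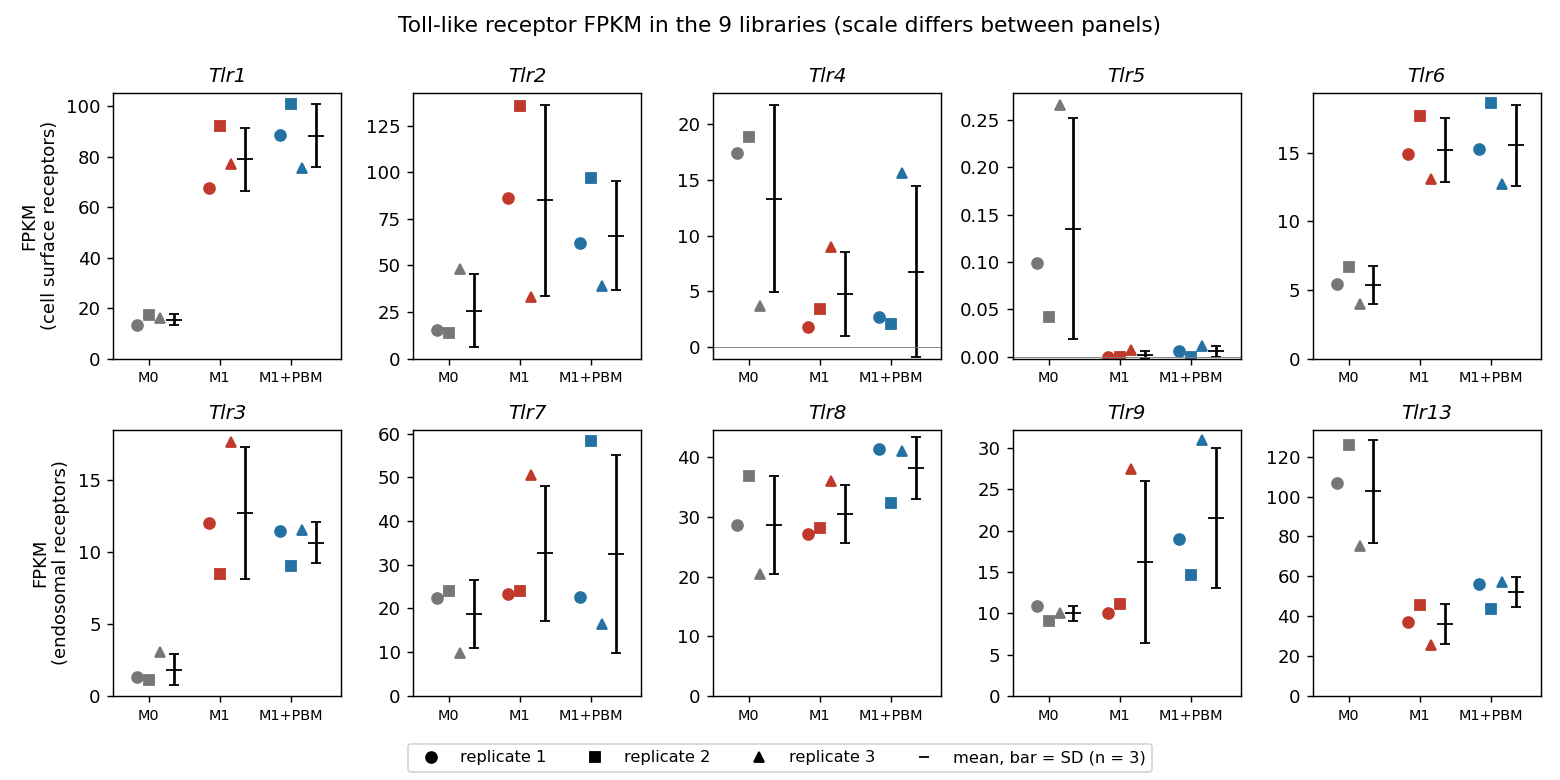
FPKM (y axis, a separate scale in each panel) of the 10 receptors in M0, M1 and M1 + PBM libraries (x axis), with 1 point per library shaped by replicate number and the mean ± SD (n = 3) beside them. Tlr1, Tlr6 and Tlr3 are higher in every stimulated library than in every M0 library and Tlr13 is lower. Replicate 3 is the highest of M0 and the lowest of both stimulated groups for Tlr2, and the reverse for Tlr4.

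Among the endosomal receptors, Tlr3 (ENSMUSG00000031639), the sensor of double-stranded RNA, differed most from M0. It had 1.34, 1.10 and 3.03 in M0, 12.0, 8.50 and 17.6 in M1 and 11.4, 9.05 and 11.5 in M1 + PBM. All stimulated libraries were above all M0 libraries, and M0 replicate 3 was the highest of its group. The mean of M1 was 6.97 times that of M0, and 10.4 times without M0 replicate 3. The log2 difference was 2.29 for M1 and 2.10 for M1 + PBM, and over the alternatives that of M1 lay between 2.04 and 2.81.

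Tlr13 (ENSMUSG00000033777), the sensor of bacterial ribosomal RNA, went the other way. Its FPKM was 106.6, 125.9 and 75.1 in M0, 36.9, 45.6 and 25.6 in M1 and 56.0, 43.4 and 57.1 in M1 + PBM. Every M0 library was above every stimulated library. The log2 difference from M0 was -1.49 for M1 and -0.94 for M1 + PBM. With median-of-ratios scaling these were -0.99 and -0.54, so M1 then missed the fold of 1. Over all alternatives the difference for M1 reached down to -1.88, when M0 replicate 3 and M1 replicate 2 were left out together. With single libraries left out it reached down to -1.69.

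Tlr9 (ENSMUSG00000045322), the CpG DNA receptor, had 10.9, 9.10 and 10.1 in M0 and 10.0, 11.1 and 27.5 in M1. In M1 + PBM it had 18.9, 14.6 and 31.0, above every M0 library. M1 replicates 1 and 2 lay at the level of M0, and replicate 3 was the highest of both stimulated groups. The log2 difference from M0 was 0.50 for M1, which was 0.068 without M1 replicate 3, and 0.97 for M1 + PBM. As deposited, Tlr9 in M1 + PBM thus missed the fold of 1. It counted as higher than M0 with median-of-ratios scaling (1.34), quantile normalization (1.10) or a pseudocount of 0.1 (1.03). It also counted without M0 replicate 1, M1 + PBM replicate 1 or M1 + PBM replicate 2. It did not without M0 replicate 2, M0 replicate 3 or M1 + PBM replicate 3 (0.91, 0.97 and 0.68).

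Tlr7 (ENSMUSG00000044583) and Tlr8 (ENSMUSG00000040522), both receptors of the X chromosome, did not separate M0 from M1. Tlr7 had 22.4, 24.0 and 9.77 in M0, 23.2, 24.0 and 50.5 in M1 and 22.7, 58.4 and 16.5 in M1 + PBM. M1 replicate 3 and M1 + PBM replicate 2 were each more than 2 times as high as the others of their group, and these do not share a number. Tlr8 had 28.6, 36.9 and 20.5 in M0, 27.2, 28.2 and 36.0 in M1 and 41.4, 32.3 and 41.1 in M1 + PBM. The log2 difference between M1 and M0 was 0.77 for Tlr7, or 0.38 without M0 replicate 3, and 0.11 for Tlr8, or -0.10 without M0 replicate 3. With median-of-ratios scaling that of Tlr7 was 1.25, without overlap between the groups, and that of Tlr8 was 0.60.

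Ratios within a library do not depend on its scaling. Tlr1 was 2.41, 2.59 and 4.04 times Tlr6 in M0 replicates 1 to 3, 4.53, 5.21 and 5.91 times in M1 and 5.80, 5.41 and 5.94 times in M1 + PBM. All stimulated libraries were above all M0 libraries. Tlr2 over Tlr4 was 0.89, 0.72 and 13.1 in M0, 47.9, 40.0 and 3.68 in M1 and 22.8, 47.9 and 2.50 in M1 + PBM. In replicates 1 and 2 the ratio was above 20 in stimulated cells and below 1 in M0, whereas in replicate 3 it was highest in M0.

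**Figure D3:**
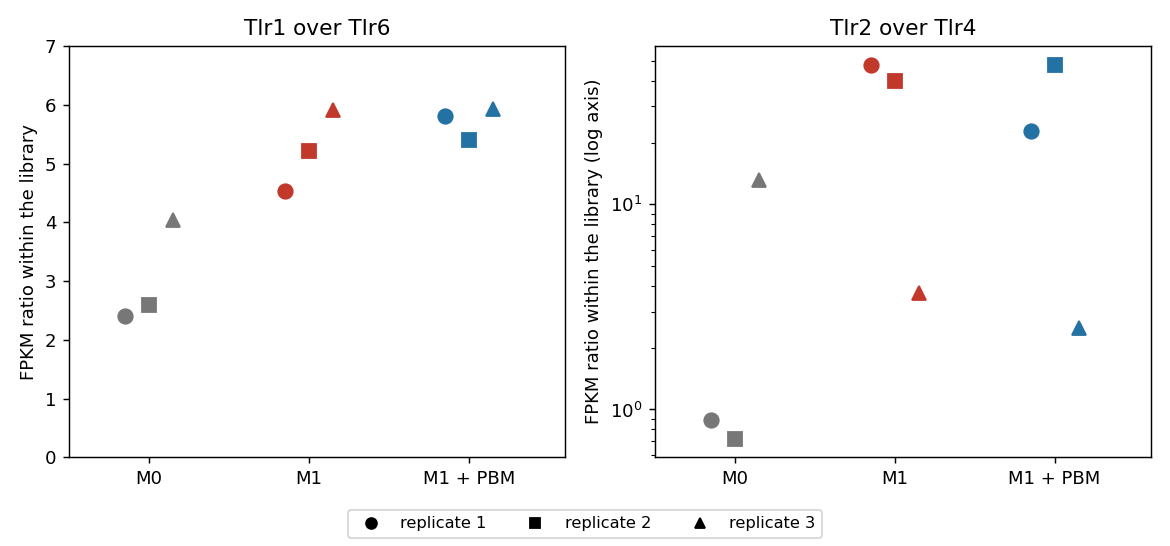
FPKM ratio within each library of Tlr1 over Tlr6 (left, linear axis) and of Tlr2 over Tlr4 (right, log axis) by group (x axis), with 1 point per library shaped by replicate number. Tlr1 over Tlr6 is at most 4.04 in M0 and at least 4.53 in the stimulated libraries, and Tlr2 over Tlr4 in replicate 3 runs against replicates 1 and 2.

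The second question is whether PBM changed receptor expression in M1 macrophages. Only Tlr13 passed an unadjusted threshold of 0.05 (limma, unadjusted p of 0.049, adjusted p = 0.90). After adjustment over the 12238 rows tested 0 of the 9 receptors passed, as did 0.00817% of all rows. Tlr13 changed by 0.55 ± 0.23 (log2, ± SE) with PBM, with a 95% interval from 0.0046 to 1.09. An unadjusted p of at most 0.05 was reached by 4.44% of all rows, which splits into 2.99% higher and 1.45% lower with PBM, against 1 of 9 receptors. The median of the log2 fold change was 0.093 over the 4 tested cell surface receptors and 0.32 over the 5 endosomal receptors, against 0.058 over all rows tested. The M1 and M1 + PBM libraries overlapped for all 10 receptors, while 8.51% of all rows were higher and 2.52% lower without overlap. No receptor passed the thresholds of p and a log2 fold change of 1 together, which 0.261% of all rows did.

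The higher level of Tlr13 with PBM came from replicates 1 and 3, with log2 changes of 0.59 and 1.12, whereas replicate 2 had -0.072. The 5 stromal markers summed to 20.9, 3.32 and 25.8 in M1 + PBM replicates 1 to 3, against 11.5, 8.42 and 12.1 in M1, so replicates 1 and 3 were high in both, and their part in the result was not tested. Its exact two-sided permutation p was 0.2, where 3 libraries against 3 cannot give less than 0.1. In the alternatives Tlr13 lay on either side of the threshold and its log2 fold change was always positive, from 0.33 when M1 replicate 3 was left out to 0.73 when M1 replicate 2 was.

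Tlr9 and Tlr8 were higher with PBM in all 3 same-numbered replicates, as were 25.5% of all rows. The log2 changes of Tlr9 were 0.86, 0.37 and 0.16 in replicates 1 to 3, and those of Tlr8 were 0.59, 0.19 and 0.18. Their log2 fold changes were 0.46 ± 0.43 and 0.32 ± 0.16 (± SE). Neither passed in limma without the block (unadjusted p of 0.31 and 0.082). Same-numbered M1 and M1 + PBM libraries deviated together across genes, and in a fit blocked on that number Tlr9 and Tlr8 passed the unadjusted threshold (limma, unadjusted p of 0.030 and 0.038, adjusted p = 0.58 for both), as did 8.07% of all rows and 4.84% in the higher direction. Tlr13 did not pass with the block (limma, unadjusted p of 0.070, adjusted p = 0.58). The labels do not say that same-numbered libraries are pairs, so the block rests on a pairing read from these same values.

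For the other 6 tested receptors no difference was detectable, and the intervals show what could be seen. The 95% interval of the log2 fold change was -0.38 to 0.43 for Tlr6, -0.23 to 0.55 for Tlr1 and -0.78 to 0.41 for Tlr3 (limma). It was far wider for the receptors in which replicate libraries differed most, -1.58 to 1.10 for Tlr2, -1.59 to 1.99 for Tlr4 and -1.34 to 1.11 for Tlr7. With the block the interval of Tlr2 narrowed to -0.68 to 0.20 and that of Tlr4 to -0.48 to 0.88, but that of Tlr7 stayed at -1.50 to 1.27. The log2 changes of Tlr7 were -0.032, 1.25 and -1.56 in replicates 1 to 3.

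**Figure D4:**
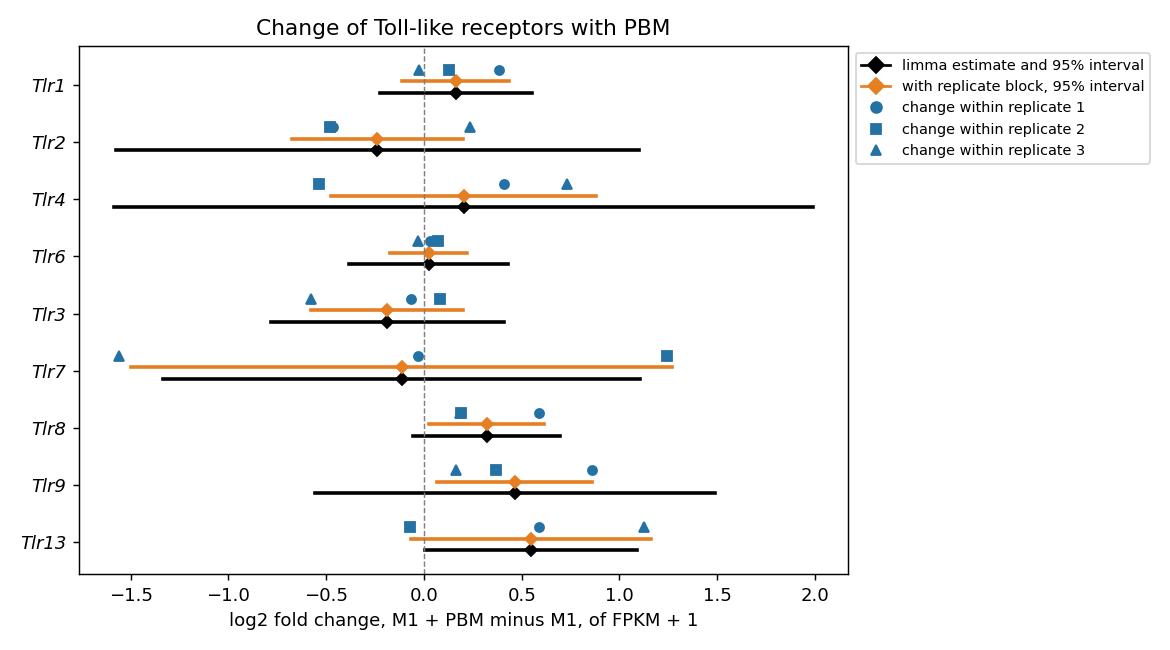
Log2 fold change of FPKM + 1 between M1 + PBM and M1 (x axis) for the 9 tested receptors (y axis), as the limma estimate with its 95% interval (black), the same with the replicate number as a block (orange) and the change within each replicate number (blue). Tlr13 has an interval above 0 without the block, and Tlr8 and Tlr9 have one with it.

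The genes that serve the receptors were taken as 6 lists, of which 64 of 69 genes were tested. With PBM, 3 of the 64 rose and 5 fell at an unadjusted p of at most 0.05 (limma), where 2.99% of all rows rose and 1.45% fell, and 0 passed after adjustment over all rows. Between M0 and M1, 19 of the 64 were higher and 4 lower by the rule used above, against 7.81% and 13.7% of all rows. Without M0 replicate 3 these were 20 and 7, against 8.82% and 14.6%.

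Of the 7 co-receptors and accessory proteins tested, 1 fell with PBM and 6 did not pass (median log2 fold change -0.087). Of all rows 1.45% fell. The gene that fell was Ly96, which encodes MD-2, the protein that binds LPS for TLR4. Its FPKM was 6.00 ± 1.47 in M0, 11.1 ± 1.22 in M1 and 9.02 ± 0.42 in M1 + PBM (SD over 3 libraries). The log2 fold change was -0.27 ± 0.11 (± SE, limma, adjusted p = 0.90). Cd14, the co-receptor that delivers LPS, had 106.4 ± 80.6, 234.7 ± 12.1 and 187.4 ± 30.8, with a log2 fold change of -0.33 that did not pass (limma, unadjusted p = 0.052). Cd14 was 76.9, 44.7 and 197.6 in M0 replicates 1 to 3, so that replicate 3 was again nearest to M1. Of the members counted between M1 and M0, Clec7a, the β-glucan receptor that works alongside TLR2, had the largest log2 difference, -2.91. Hmgb1 followed with -1.47. Without M0 replicate 3 Clec7a had -3.29, but Hmgb1 had -1.21 and came after Cd36 with -2.34 and Cd14 with 1.98. Cd36, which overlapped between M1 and M0 with all libraries kept (-1.75), is named here for that order.

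Of the 12 trafficking and processing genes, 2 rose with PBM, 0 fell and 10 did not pass (median 0.13). Of all rows 2.99% rose and 1.45% fell. Rab7b, a small GTPase known to promote lysosomal degradation of TLR4 and TLR9, had an FPKM of 47.3, 64.1 and 31.7 in M0, 14.6, 14.6 and 21.1 in M1 and 37.8, 25.0 and 38.6 in M1 + PBM. The M1 + PBM libraries lay above all M1 libraries, and the log2 fold change was 0.96 ± 0.22 (± SE, limma, adjusted p = 0.90). Slc15a4, an endolysosomal transporter needed for TLR7 and TLR9 signalling, had 8.06 ± 1.39 in M1 and 10.7 ± 0.21 in M1 + PBM (log2 fold change 0.38, standard error 0.13). Unc93b1, which carries the endosomal receptors out of the endoplasmic reticulum, had 144.8 ± 1.35 in M0, 207.0 ± 14.8 in M1 and 206.6 ± 12.3 in M1 + PBM. Its log2 fold change with PBM was -0.0022. Nrros, an inhibitor of Toll-like receptor signalling, had the largest difference of this list between M1 and M0, with a log2 difference of -1.64, followed by Rab7b with -1.42. Without M0 replicate 3 this order turned, with -1.64 for Nrros and -1.68 for Rab7b. With PBM Nrros did not pass without the block and passed with it (limma, unadjusted p of 0.11 and 0.0075, log2 fold change 0.67).

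None of the 5 tested adaptors passed with PBM (limma, 0 at an unadjusted p of at most 0.05), where 4.44% of all rows did. Myd88, the adaptor of all the receptors here except TLR3, had 24.8 ± 7.88 in M0, 77.9 ± 17.0 in M1 and 75.4 ± 7.32 in M1 + PBM (SD over 3 libraries). Its log2 difference between M1 and M0 was 1.64, and that of Pik3ap1, the adaptor BCAP, was 1.23. Ticam1, which encodes TRIF, the adaptor of TLR3 and TLR4, had 11.1 ± 0.78, 16.5 ± 3.73 and 14.2 ± 2.66. Tirap and Ticam2, the bridging adaptors at the membrane, had log2 fold changes with PBM of -0.16 and -0.071.

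The 18 kinases and ubiquitin ligases also held 0 that passed with PBM in limma, with a median log2 fold change of 0.032. Of the 18, 4 were higher in M1 than in M0, against 7.81% of all rows. The largest differences were those of Peli1, a ubiquitin ligase of the TRIF pathway, with a log2 difference of 2.29, and of Tank, a scaffold of TBK1, with 1.50. Without M0 replicate 3 Tank had 1.63 and came after Ikbke, the kinase IKKε, with 1.69, a gene named here for that order.

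Of the 10 negative regulators tested, 3 fell with PBM and 1 rose (median -0.22), where 1.45% and 2.99% of all rows did. With the block 3 fell and 0 rose, where 8.07% of all rows passed in either direction and 4.84% in the higher direction. Socs1, a suppressor of cytokine signalling, had an FPKM of 0.14, 0.20 and 0.45 in M0, 16.3, 12.7 and 13.3 in M1 and 7.15, 8.78 and 7.40 in M1 + PBM. The 3 groups did not overlap, and the log2 fold change with PBM was -0.78 ± 0.13 (± SE, limma, adjusted p = 0.81). Tnfaip3, which encodes the deubiquitinase A20, had 45.4 ± 8.06 in M1 and 29.3 ± 7.89 in M1 + PBM (log2 fold change -0.63, standard error 0.21). Zc3h12a, the RNase regnase-1, had 59.7 ± 6.88 and 41.1 ± 8.22 (log2 fold change -0.54, standard error 0.17). Rnf216, a ubiquitin ligase that can mark Toll-like receptors for degradation, had 5.57 ± 0.44 and 6.73 ± 0.24 (log2 fold change 0.23, standard error 0.092), and did not pass with the block (limma, unadjusted p of 0.055, adjusted p = 0.58). Irak3, an inhibitory relative of the IRAK kinases, had 6.30 ± 2.67 in M0, 39.2 ± 10.1 in M1 and 35.7 ± 8.26 in M1 + PBM, and did not pass with PBM.

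Of 12 transcription factors, 6 were higher in M1 than in M0, against 7.81% of all rows, with the largest log2 difference for Irf7 (5.64), an interferon regulatory factor. In M0 replicates 1 to 3 Irf7 was 1.53, 0.93 and 13.8, and the mean of M1 was 39.4 times that of M0, or 174.5 times without M0 replicate 3 (log2 difference 6.56). With PBM 1 of the 12 fell, where 1.45% of all rows did. It was Rela, the p65 subunit of NF-κB, which had 33.3 ± 3.85 in M1 and 24.4 ± 2.11 in M1 + PBM. With the block Nfkb2, another NF-κB subunit, passed too (log2 fold change -0.47, limma, unadjusted p of 0.035, adjusted p = 0.58), and is named here after its value was seen.

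**Figure D5:**
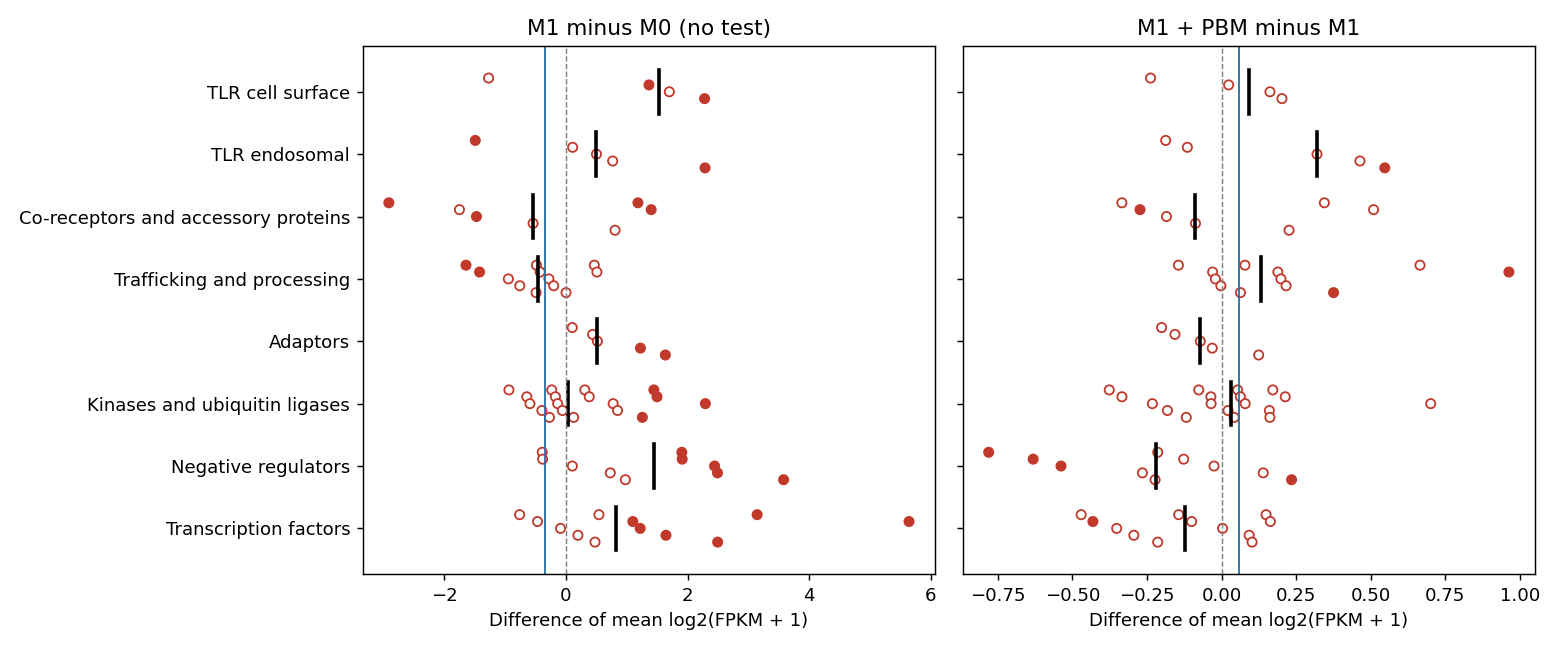
Difference of mean log2(FPKM + 1) between M1 and M0 (left) and between M1 + PBM and M1 (right) for each tested gene (points) of the 2 receptor groups and the 6 lists (y axis). Filled points on the left differ by at least 1 without overlap and on the right have an unadjusted limma p of at most 0.05, black bars are list medians and the blue line is the median of all rows (-0.34 and 0.058).

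The genes whose profile over the 9 libraries was nearest to that of the 3 most abundant receptors were found by the root mean square difference of log2(FPKM + 1), each profile centred on its mean, among 13630 rows. Nearest to Tlr13 were Stard9, Dip2b and Prkch, with differences of 0.12, 0.12 and 0.13, where Tlr13 itself spanned 2.25. Nearest to Tlr1 were Pla2g16, Tnfrsf14 and Slc31a2, with 0.18, 0.18 and 0.21 against a span of 2.85. Nearest to Tlr2 were Gm16685, Pilrb2 and Agrn, with 0.30, 0.35 and 0.36 against a span of 3.23, so the profile of Tlr2 had the least close neighbours of the 3. These profiles share libraries and the difference between tables, and they are given as a description.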

How the data were processed

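RNA-seq of BMDMs was read from 2 tables with 55655 rows each, 1 holding the 3 M0 libraries and 1 the 3 M1 and 3 M1 + PBM libraries. Their values are FPKM computed by the authors, who name Cufflinks methods. The processing notes in the labels name Bowtie 0.12.2 and mm9 without a role, and the annotation release and filters are not given in the sources used here. The libraries were strand-specific. Of the rows, 55154 were paired with symbols of GENCODE release M21, and 320 carry names of the form MSTRG. No coordinates were taken from the tables, and promoters are those of RefSeq on GRCm38.p6.

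Samples were grouped by their titles. M1 + PBM was compared with M1 by moderated linear models on log2(FPKM + 1), using limma 3.58.1 with a mean-variance trend under R 4.3.3. The 12238 rows that reached an FPKM of 1 in 3 or more of the 6 libraries entered. On this scale changes of low values are understated. The study's thresholds are 0.05 for the unadjusted p and 1 for the absolute log2 fold change, and Benjamini-Hochberg adjusted values cover all 12238 rows. The fit was tested on simulated data whose changes were larger than that of any receptor with PBM, so that test does not cover changes of their size. M0 entered no test. A difference from M0 was counted when it was at least 1 and the groups did not overlap.

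Depth was estimated from genes with 1 annotated transcript. Of the depths scanned for each library, the one that put most of their low values near whole multiples of 1 fragment was kept. At that depth, between 36.5% and 39.3% of the low values lay within 0.05 of a whole multiple. An even spread would give 10% at a depth fixed beforehand, so the shares cannot be set against it directly. No reads were recovered. Fragment numbers are upper estimates.

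Deviations of same-numbered M1 and M1 + PBM libraries from their group means correlated across genes with r of 0.16, 0.47 and 0.46. Between different numbers r ran from -0.49 to 0.033, where centring on the group means lowers r if same-numbered r is positive. The labels do not say that same-numbered libraries are pairs, so taking them as pairs rests on these same values. A fit with the replicate number as a block was made beside the main one. Also tried were scaling by median-of-ratios or quantiles, a pseudocount of 0.1, dropping the FPKM minimum or asking for a mean of 5, variances without the trend or without moderation, and leaving out each library in turn. Against M0, leaving out M0 replicate 3 together with M1 replicate 2, or replicate 3 of both groups, was not planned. Named genes are the 10 receptors, list genes with an unadjusted p of at most 0.05 with PBM, the 2 in each list with the largest counted difference between M1 and M0, direct partners of the receptors, Nos2 and Il6. The values of 1 gene named by this rule are not reported here. The receptors, lists and tests were chosen with earlier results of these data known.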

Additional observations from a re-analysis of the deposited data

How the results depend on the processing

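The direction of the difference from M0 was the same under every alternative run for Tlr1, Tlr2, Tlr3, Tlr6, Tlr7 and Tlr9 (higher). It was also the same for Tlr4, Tlr5 and Tlr13 (lower), while Tlr8 changed sign between M1 and M0. The log2 difference between M1 and M0 went down to 0.027 for Tlr7 and 0.068 for Tlr9. The count of receptors that differed between M1 and M0 was 4 as deposited, 5 with a pseudocount of 0.1 (Tlr5 added) or median-of-ratios scaling (Tlr2 and Tlr7 added, Tlr13 lost), and 4 to 6 with single libraries left out. Dropping the FPKM minimum was not run for members against M0. Between M1 + PBM and M0 the count was 3. It was 5 with a pseudocount of 0.1 (Tlr9 and Tlr5 added), median-of-ratios scaling (Tlr2 and Tlr9 added) or quantile normalization (Tlr9 and Tlr13 added). With single libraries left out it was 3 to 6 (6 without M0 replicate 3 or M1 + PBM replicate 3). Without replicate 3 of both groups it was 6. Shares of all rows were computed only as deposited and for the left-out libraries whose shares stand with the results, so the other counts have none. No paired comparison was made with M0, which enters no test.

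For PBM, the receptors with an unadjusted p of at most 0.05 numbered 1, and 0 with scaling by median-of-ratios or quantiles, with the FPKM minimum dropped or raised to a mean of 5, or with unmoderated variances, 2 with the replicate block, and 0 to 2 with single libraries left out (2 without M1 replicate 3 or M1 + PBM replicate 2, 0 without M1 replicate 1, M1 + PBM replicate 1 or M1 + PBM replicate 3). Tlr13 had limma p-values between 0.015 and 0.13 over the alternatives. No receptor passed after adjustment, or with the fold threshold, under any alternative in limma. The pathway count was 8, and 4 to 13 with single libraries left out (4 without M1 replicate 1, M1 + PBM replicate 1 or M1 + PBM replicate 3, 13 without M1 + PBM replicate 2). Over all rows, 543 were called with every library kept, 312 without M1 replicate 1 and 518 without M1 replicate 3. Without M1 + PBM replicate 1, 2 or 3 the numbers over all rows were 252, 924 and 326. With the fold threshold the pathway count was 0, 1 with a pseudocount of 0.1, and 0 to 1 with single libraries left out.

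Over all rows the count at an unadjusted p of at most 0.05 was 543, and 1318 with the FPKM minimum dropped, 233 with a mean of 5, 988 with the replicate block, and 252 (without M1 + PBM replicate 1) to 1092 (without M1 replicate 2) with single libraries left out. With the fold threshold it was 32, and 75 with a pseudocount of 0.1, 13 without moderation, and 27 to 89 (without M1 + PBM replicate 2) with single libraries left out. After adjustment 1 row passed, 0 without moderation, and 0 to 1 with single libraries left out.

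The sign of the PBM change turned for receptors that did not pass. That of Tlr6 was -0.051 with median-of-ratios scaling. With single libraries left out the log2 fold change ran from -0.80 to 0.20 for Tlr2, from -0.57 to 0.71 for Tlr4, from -0.11 to 0.15 for Tlr6, from -0.42 to 0.061 for Tlr3 and from -0.63 to 0.25 for Tlr7. The cause of these shifts was not tested.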
